A study of Mus musculus with 10 samples.

Results

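Apolipoproteins are the protein parts of the lipoprotein particles that carry lipids in blood, and the liver secretes most of them. The 10 genes described here were chosen by name: the secreted apolipoproteins Apoa1, Apoa2, Apoa4, Apob, Apoh and Apom, the particle assembly pair Mttp and P4hb, and the plasma proteins Lcat and Pltp. All probe sets that the array annotation gives to 1 of these genes alone were taken, which made 19 probe sets of 34945 with a single gene symbol, and 10 genes of 18193. The study measured liver RNA of 10 mice on Affymetrix expression arrays, 1 mouse per array. In 5 mice (arrays 16 to 20), an adenovirus delivered a cJun that acts as a dominant negative, and these are the arrays labelled dn-cJun. The control group of 5 mice (arrays 11 to 15) received an adenovirus carrying GFP, a fluorescent protein. The labels describe all 10 mice as ApoE-/-, lacking a further apolipoprotein, which the Apoe signal below goes against in 5 arrays, and both groups carry a virus. The labels give no strain, age, sex, virus dose or time after infection.

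The liver packs triglyceride and cholesteryl ester onto apolipoprotein B inside the endoplasmic reticulum to make very low density lipoprotein (VLDL). This loading needs the microsomal triglyceride transfer protein, a heterodimer of the lipid-carrying subunit encoded by Mttp and protein disulfide isomerase encoded by P4hb. High density lipoprotein (HDL) forms around apolipoproteins A-I and A-II, and is then remodelled in plasma by the cholesterol-esterifying enzyme Lcat and the phospholipid transfer protein Pltp. cJun dimerizes with related proteins to form AP-1, which binds DNA, and the study's title speaks of effects on lipid homeostasis.

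Values below are log2(intensity + 16) after quantile normalization of the 10 arrays, called log2 signal, and differences are arrays labelled dn-cJun minus control on that scale. Each gene is represented by its brightest probe set, with adjusted p-values over 12736 genes, and other probe sets come from a separate fit over all 34945 probe sets. Signals of different probe sets are not set against each other as amounts of RNA.

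Several arrays went against their labels or stood apart. The Apoe probe set, which should check the ApoE-/- label, had a log2 signal of 15.31 to 15.82 in the arrays labelled dn-cJun and of 9.42 to 10.94 in the controls, so those 5 arrays carried a strong Apoe signal despite the label, and every direction below is between groups that differ in it too. Jun was at a difference of -0.07 (SE 0.17, limma adjusted p = 0.890). Xist, which coats the inactive X in female cells, was at 13.71 and 13.63 in controls 14 and 15 and at 5.90 to 6.72 in the other 8 arrays, and the Y-linked genes Eif2s3y, Kdm5d and Uty were low in the same controls, so results are also given without these 2 arrays. The RNA of control 11 alone is labelled as extracted with Trizol. Median deposited intensity was 85.3 to 127.5 per array. The contrast between 3 prime and 5 prime control probe sets, a measure of RNA integrity, differed by 0.03 for Gapdh and 0.04 for Actb (exact two-sided permutation test, adjusted p = 0.429 for both). Without quantile normalization the Actb contrast differed by 0.12 (exact permutation test, adjusted p = 0.0159).

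No gene of the set passed the threshold of adjusted p under 0.05 (limma, 0 of 10 genes and 0 of 19 probe sets). Over all genes, 0.777% passed, 44 of them higher (0.345%) and 55 lower (0.432%), and over all probe sets 0.429% passed. The split of all genes was 22 higher and 468 lower with the values as deposited, and 20 higher and 45 lower with equal array medians. At an unadjusted p under 0.05 there were 2 of the 10 genes, P4hb with a higher and Pltp with a lower signal in the arrays labelled dn-cJun, where 14.9% of all genes reached that level. Among the 19 probe sets these were again 2, against 11.2% of all probe sets. P4hb was the only gene of the 10 whose group ranges did not overlap, against 4.22% of all genes, and 1 of the 19 probe sets, against 2.8% of all probe sets. This depended on the scaling. With the values as deposited P4hb alone was without overlap (7.17% of all genes), by a narrow margin. Its lowest array labelled dn-cJun was at 22785 and its highest control at 22773. Apoa1 and Apoh but not P4hb were without overlap with equal array medians (3.3%), and P4hb and Apom with equal trimmed means (4.37%). The median log2 fold change of the 10 genes was 0.04, beside 0.0015 over all genes tested. With controls 14 and 15 left out, again none of the 10 passed, where 0.408% of all genes did. A limma p that misses the threshold does not show equal expression, so a 95% confidence interval is given for each gene.

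**Figure D1:**
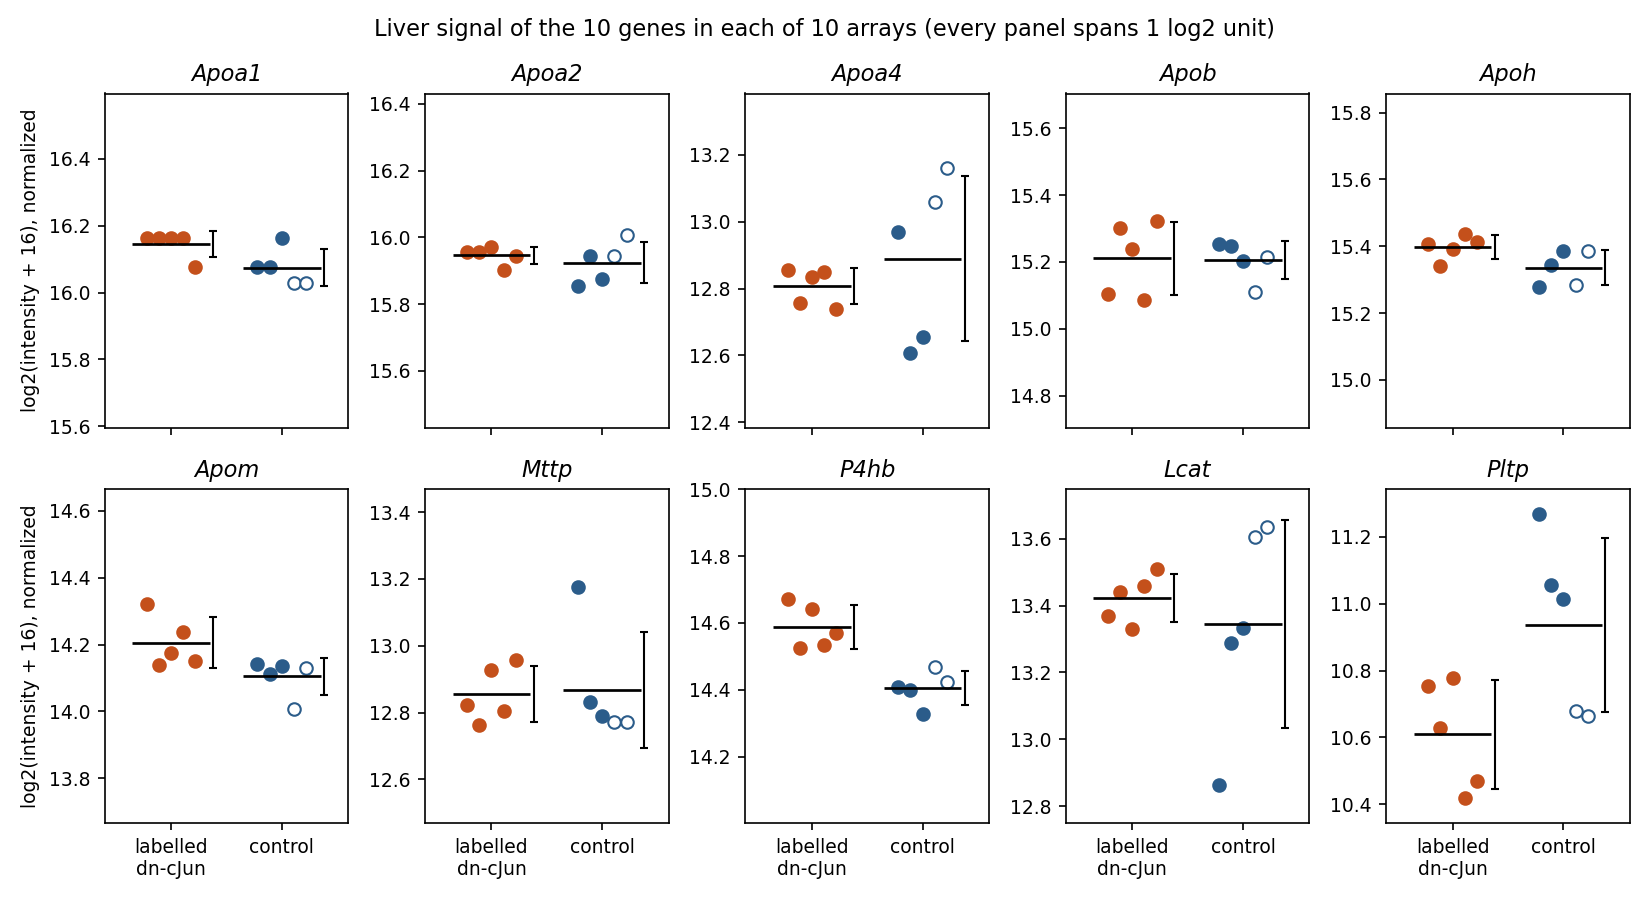
Log2 signal of the brightest probe set of each gene in every array, with arrays labelled dn-cJun on the left and controls on the right of each panel. Each circle is 1 mouse, open circles are controls 14 and 15, lines are group means, the bar beside them is the SD (n = 5), and every panel spans 1 log2 unit. P4hb is the panel without overlap, and the controls of Apoa4, Lcat and Pltp are spread more widely than the arrays labelled dn-cJun.

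The RefSeq windows from 250 bases before to 50 bases after the annotated start (GRCm38.p6) were searched because cJun is part of AP-1. All 10 genes had a window, 11 windows in all since Apoa2 has 2 starts. AP-1 was searched as the letters TGANTCA, with N as any base, and CRE as the related letters TGACGTCA, both read on both strands. TGANTCA was in 0 of the 11 windows and in 7.81% of all 32851 windows, and TGACGTCA in 0 of 11 and in 1.79% of all. This says only that these letters are not in these windows. The windows of the 3 genes that the results below turn on are printed 5′ to 3′ on the strand of the gene. Capitals mark the letters TATAAA (in 13.6% of all windows), CCAAT (37.4%) and GGGCGG (35.7%) on either strand. P4hb holds 1 CCAAT and 3 GGGCGG matches at chr11:120573204-120573503 on the minus strand, Pltp holds 1 match of each at chr2:164857659-164857958 on the minus strand, and Apoa1 holds none at chr9:46228380-46228679 on the plus strand.
P4hb: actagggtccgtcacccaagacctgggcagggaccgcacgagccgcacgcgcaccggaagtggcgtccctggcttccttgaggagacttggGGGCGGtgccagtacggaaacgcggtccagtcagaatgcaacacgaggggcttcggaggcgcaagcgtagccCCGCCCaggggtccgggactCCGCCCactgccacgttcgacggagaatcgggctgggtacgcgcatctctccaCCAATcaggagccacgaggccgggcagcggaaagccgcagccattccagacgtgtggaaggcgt
Pltp: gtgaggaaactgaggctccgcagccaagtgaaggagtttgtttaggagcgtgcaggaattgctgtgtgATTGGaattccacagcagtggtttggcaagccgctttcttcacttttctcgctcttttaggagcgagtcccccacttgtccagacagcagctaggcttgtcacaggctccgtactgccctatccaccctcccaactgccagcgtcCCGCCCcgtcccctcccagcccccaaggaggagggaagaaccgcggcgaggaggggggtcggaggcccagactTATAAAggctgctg
Apoa1: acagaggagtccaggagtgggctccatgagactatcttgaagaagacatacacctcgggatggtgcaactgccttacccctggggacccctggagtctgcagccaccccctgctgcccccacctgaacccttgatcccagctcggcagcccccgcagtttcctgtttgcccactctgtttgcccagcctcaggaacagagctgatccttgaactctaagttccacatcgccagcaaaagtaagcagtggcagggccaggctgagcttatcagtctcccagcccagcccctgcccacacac

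Apoa1 encodes the main structural protein of HDL and was read by 4 probe sets. The brightest had log2 signals of 16.16, 16.16, 16.16, 16.16 and 16.08 in the arrays labelled dn-cJun, and of 16.08, 16.08, 16.16, 16.03 and 16.03 in controls 11 to 15. The groups overlapped, at 16.15 ± 0.04 and 16.07 ± 0.06 (SD, n = 5 each). The difference was 0.07 (95% interval -0.03 to 0.17, limma adjusted p = 0.504). The other 3 Apoa1 probe sets differed by -0.0009, 0.01 and 0.02. Apoa2, the second HDL protein, had 15.96, 15.96, 15.97, 15.90 and 15.94 in the arrays labelled dn-cJun against 15.85, 15.94, 15.88, 15.94 and 16.01 in controls. Its difference was 0.02 (95% interval -0.08 to 0.12, limma adjusted p = 0.873).

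These small differences were measured at the very top of the arrays' range. Before scaling, the brightest Apoa1 probe set held rank 1 to 3 of 45101 on each of the 10 arrays, the other 3 lay between rank 1 and rank 8, and Apoa2 between rank 4 and rank 10. Quantile normalization gives each rank the same value on every array, so for these probe sets it leaves room only for a change of rank. In the deposited intensities the brightest Apoa1 probe set was at 70523, 75672, 76112, 80110 and 79031 in the arrays labelled dn-cJun, and at 60881, 64619, 70619, 66011 and 63390 in controls. All 5 arrays labelled dn-cJun lay above 4 of the 5 controls, and control 13 lay just above the lowest of them. Apoa2 averaged 67086 ± 4870 in the arrays labelled dn-cJun and 59124 ± 4400 in controls (SD, n = 5 each), with overlapping ranges.

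**Figure D2:**
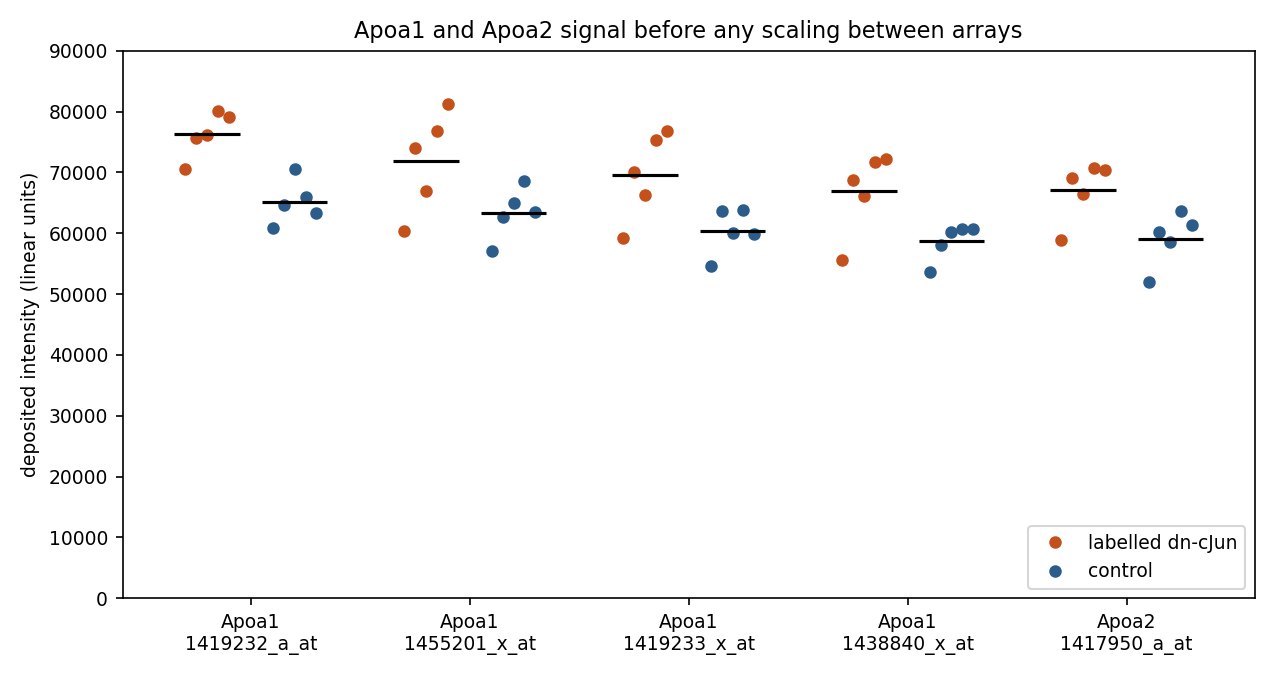
Deposited intensity on a linear axis from 0 of the 4 Apoa1 probe sets and the Apoa2 probe set, with arrays labelled dn-cJun left of controls. Points are arrays and lines are group means: all 5 probe sets have the higher mean in the arrays labelled dn-cJun, 76289 and 65104 units for the brightest Apoa1 probe set, and their ranges overlap.

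With the deposited values the Apoa1 difference was 0.23 (95% interval 0.11 to 0.35, limma adjusted p = 0.0423), past the threshold, where 3.85% of all genes passed and the median of all genes shifted by -0.19. The Actb contrast of RNA integrity differed by 0.12 on the same scale, and its part in the Apoa1 value was not tested. Taken relative to that median gene, Apoa1 differed by 0.42. Equal array medians and equal trimmed means gave 0.42 and 0.43, which are not separate readings. Both apply 1 factor per array, which moves Apoa1 and the median gene alike. These last 2 scalings gave limma adjusted p-values of 0.187 and 0.0907 for Apoa1 and no call among the 10 genes, where 0.51% and 0.769% of all genes passed. With deposited values and without controls 14 and 15 its difference was 0.22 (limma adjusted p = 0.112). In the fit over all probe sets with deposited values, 0 of the 19 probe sets passed. There the brightest Apoa1 probe set had a limma adjusted p of 0.213. The other Apoa1 probe sets differed by 0.18 to 0.20 (limma adjusted p = 0.324 to 0.404). Relative to the median gene, the deposited values gave 0.38 for Apoa2, 0.35 for Apoh, 0.31 for P4hb, 0.26 for Apob, 0.20 for Apom and 0.15 for Lcat, against 0.04 for Mttp, -0.03 for Apoa4 and -0.33 for Pltp. Before the median gene of -0.19 is taken off, the second probe sets were at -0.28 for Apob, -0.21 for Apom and -0.10 for Apoh. The brightest probe sets of these genes were at 0.07, 0.01 and 0.16 on that scale. The second probe sets of Apoa4, Mttp and Pltp were at -0.07, -0.19 and -0.06.

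A higher position relative to the median gene was shared by bright genes at large. With equal array medians, 220 of the 254 tested genes with a log2 signal of 14 and above were higher in the arrays labelled dn-cJun, with a median difference of 0.17, and 6 of the 10 genes described here belong to those 254. Genes with a log2 signal between 8 and 10 had a median of -0.06 under the same scaling. After quantile normalization the medians of these classes were 0.02 and 0.0006. Apoa1, Apoa2, Apoh and P4hb lay above the upper quartile of their signal class with equal array medians, which was 0.26, and Apob and Apom lay within the quartiles.

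**Figure D3:**
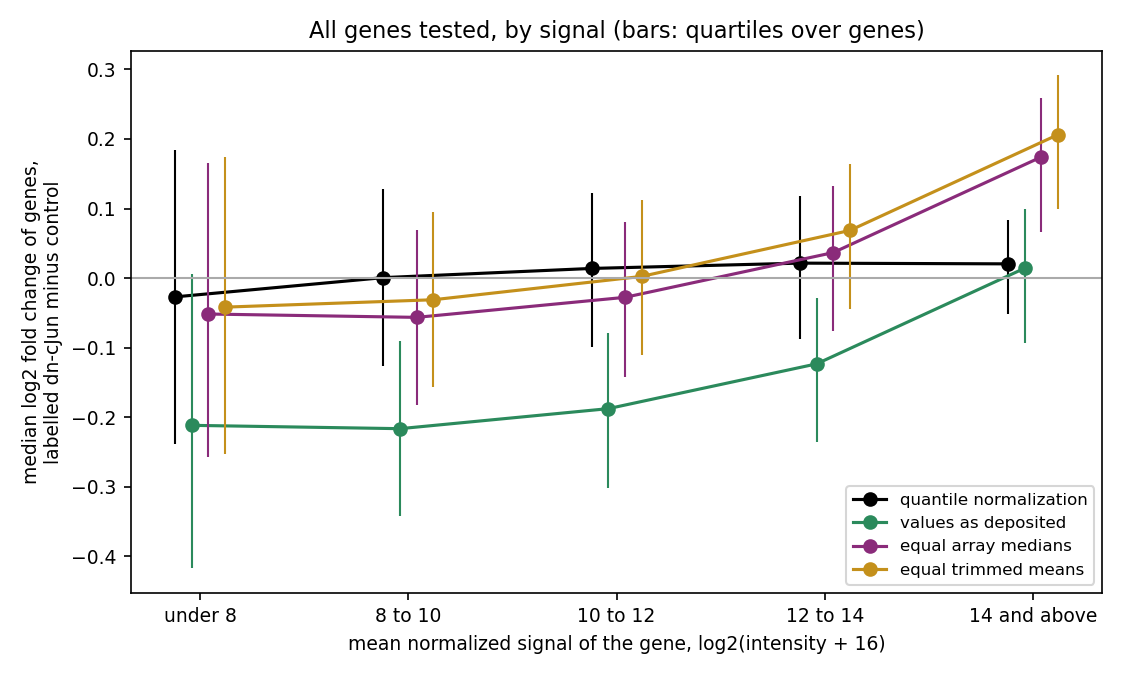
Median log2 fold change, labelled dn-cJun minus control, of all genes tested in 5 classes of mean normalized log2 signal, for 4 scalings between arrays. Bars are the quartiles over genes: without quantile normalization the class at 14 and above lies highest, with a median of 0.17 for equal array medians.

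Apob encodes the single large protein on which each VLDL particle is built. Its log2 signals were 15.11, 15.30, 15.24, 15.09 and 15.32 in the arrays labelled dn-cJun, and 15.25, 15.25, 15.20, 15.11 and 15.22 in controls. The controls lay inside the range of the other group. The difference was 0.01 (95% interval -0.12 to 0.13, limma adjusted p = 0.979). A second, dimmer probe set differed by -0.05 (95% interval -0.34 to 0.23).

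Apoh encodes beta-2-glycoprotein I, a plasma protein that binds anionic phospholipids. It had 15.41, 15.34, 15.39, 15.44 and 15.41 in the arrays labelled dn-cJun and 15.28, 15.34, 15.39, 15.29 and 15.39 in controls. The groups overlapped, and the fold was 1.04 (95% interval 0.973 to 1.12, limma adjusted p = 0.591). With equal trimmed means the Apoh difference was 0.35 (95% interval 0.13 to 0.57, limma adjusted p = 0.125). Its second probe set, at a log2 signal of 7.10 to 7.97 over all arrays, differed by 0.10 (95% interval -0.32 to 0.53).

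Apom encodes an HDL apolipoprotein that carries sphingosine 1-phosphate. Its log2 signals were 14.32, 14.14, 14.17, 14.24 and 14.15 in the arrays labelled dn-cJun against 14.14, 14.11, 14.13, 14.01 and 14.13 in controls. The ranges overlapped by a narrow margin, and the difference was 0.10 (95% interval -0.02 to 0.22, limma adjusted p = 0.426). The second Apom probe set, at 13.97, 13.69, 13.76, 13.79 and 13.87 in the arrays labelled dn-cJun and 13.75, 13.99, 14.03, 13.82 and 14.03 in controls, pointed the other way, at -0.11 (95% interval -0.28 to 0.06). Neither probe set passed, and their mean differed by -0.0050.

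Apoa4 encodes an apolipoprotein of triglyceride-rich particles and HDL that the mouse liver makes in addition to the intestine. Its brighter probe set had 12.86, 12.76, 12.83, 12.85 and 12.74 in the arrays labelled dn-cJun, against 12.97, 12.61, 12.65, 13.06 and 13.16 in controls 11 to 15. The controls spread over both sides of the other group, with an SD of 0.05 in the arrays labelled dn-cJun against 0.25 in controls, and controls 14 and 15 were the highest arrays. The difference was -0.08 (95% interval -0.30 to 0.13, limma adjusted p = 0.761) and turned to 0.06 without those 2 controls. The second probe set differed by 0.11 (95% interval -0.29 to 0.51) and by 0.30 without them, with no call in either fit.

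Mttp and P4hb encode the subunits of the triglyceride transfer complex, and whether their differences are unlike each other was not tested. Mttp had log2 signals of 12.82, 12.76, 12.93, 12.81 and 12.96 in the arrays labelled dn-cJun and 13.18, 12.83, 12.79, 12.77 and 12.77 in controls. Control 11 was the highest array and the other 4 controls overlapped with the arrays labelled dn-cJun. The fold was 0.991 (95% interval 0.875 to 1.12, limma adjusted p = 0.958), and the second Mttp probe set gave a difference of -0.01 (95% interval -0.17 to 0.15). Without control 11 the difference of the first was 0.06.

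P4hb had 14.67, 14.52, 14.64, 14.53 and 14.57 in the arrays labelled dn-cJun, against 14.41, 14.40, 14.33, 14.47 and 14.42 in controls. All 5 arrays labelled dn-cJun lay above all 5 controls. The fold was 1.14 (95% interval 1.05 to 1.23), a difference of 0.18 with a standard error of 0.05, and it missed the threshold (limma adjusted p = 0.132, unadjusted p = 0.00379), at rank 364 of 12736 by p. It had the smallest p of the 10 genes and a single probe set. The difference was higher in the arrays labelled dn-cJun under every alternative run, at 0.12 to 0.34, with limma adjusted p-values of 0.0638 to 0.318, and at 0.16 to 0.20 with 1 array left out. It was 0.21 without controls 14 and 15 (limma adjusted p = 0.169).

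P4hb also serves outside this complex as an oxidoreductase that forms disulfide bonds and as a subunit of collagen prolyl 4-hydroxylase. Of its 13 listed partners in the endoplasmic reticulum, 13 were tested, and 4 had a higher and 9 a lower signal in the arrays labelled dn-cJun. Of the 13, 0 passed the threshold (limma), where 0.777% of all genes did. An unadjusted limma p under 0.05 was reached by 4 of the 13, beside 14.9% of all genes. The median difference of the 13 was -0.06. It was -0.02 without controls 14 and 15, where 6 of the 13 were higher. Hspa5, the chaperone BiP, was at -0.23 (SE 0.06, limma adjusted p = 0.0935), opposite in sign to P4hb. Its ranges did not overlap, which 4.22% of all genes showed. Hspa5 passed with the values as deposited, at -0.32 (limma adjusted p = 0.0247), and was at -0.16 (limma adjusted p = 0.556) with equal array medians and -0.13 (limma adjusted p = 0.481) with equal trimmed means. Txndc5, another disulfide isomerase, was at 0.19 (SE 0.08, limma adjusted p = 0.272), and with the values as deposited it was at 0.01. Over the 10 arrays the genes with the highest Pearson correlation to P4hb were Fam169b and Sft2d2 at 0.92 and Selenos, Aldh9a1 and Ext2 at 0.91. These correlations include the difference between the groups, none of the 5 genes passed the threshold (limma adjusted p = 0.122 to 0.298), and they describe likeness of pattern alone.

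Lcat esterifies cholesterol on HDL. Its log2 signals were 13.37, 13.44, 13.33, 13.46 and 13.51 in the arrays labelled dn-cJun, against 12.86, 13.29, 13.33, 13.61 and 13.63 in controls 11 to 15. The 5 controls enclosed the arrays labelled dn-cJun, with an SD of 0.07 in the arrays labelled dn-cJun against 0.31 in controls, and controls 14 and 15 were again the highest. The fold was 1.05 (95% interval 0.881 to 1.26, limma adjusted p = 0.817). The difference was 0.26 without controls 14 and 15 (SE 0.10, limma adjusted p = 0.287) and -0.04 without control 11.

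Pltp moves phospholipid between particles and is made by macrophages as well as hepatocytes. Its brighter probe set had 10.76, 10.63, 10.78, 10.42 and 10.47 in the arrays labelled dn-cJun, against 11.27, 11.06, 11.01, 10.68 and 10.66 in controls 11 to 15. Controls 11 to 13 lay above all arrays labelled dn-cJun, and controls 14 and 15 lay among them. The fold was 0.797 (95% interval 0.664 to 0.957), and the difference of -0.33 (SE 0.12) missed the threshold (limma adjusted p = 0.234). Without controls 14 and 15 it was -0.51 (SE 0.11, limma adjusted p = 0.0677) and the ranges did not overlap, which 9.59% of all genes then showed. With a term for those 2 arrays in the fit it was -0.50 and passed (limma adjusted p = 0.0391), where 1.22% of all genes did. With deposited values and without them it was -0.70 (limma adjusted p = 0.0388), where 1.63% of all genes passed. In the fits over all probe sets, 0 of the 19 probe sets passed in either of these last settings.

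The second Pltp probe set did not follow the first. It had 9.41, 9.35, 9.76, 9.14 and 9.50 in the arrays labelled dn-cJun and 9.46, 9.19, 9.62, 8.82 and 9.31 in controls, with overlapping ranges. It differed by 0.15 (95% interval -0.16 to 0.47), and by 0.01 without controls 14 and 15. The brighter probe set has a name ending in _s_at, by which the manufacturer marks probes shared between transcripts. Which of the 2 follows Pltp RNA was not tested. Of 7 tested markers of Kupffer cells and macrophages, 5 had a lower mean in the arrays labelled dn-cJun, beside 6328 of all 12736 genes. The median difference of the 7 was -0.15. Of the 7, 1, Cd5l, passed the threshold at -0.57 (limma adjusted p = 0.0323), where 0.777% of all genes did. Without controls 14 and 15, where the brighter Pltp probe set was further from 0, 3 of the 7 markers were higher. The median of the 7 was then -0.10 and 0 passed, where 0.408% of all genes did. Cd5l and Csf1r, at mean log2 signals of 12.86 and 12.60 in the arrays labelled dn-cJun, weigh most in a sum of the markers. With all arrays, the summed normalized intensity of 8 markers was 14470 to 17660 in the arrays labelled dn-cJun against 16420 to 23580 in controls. None was at 0, Timd4 lay below the filter, and their part in the Pltp values was not tested. In whole liver, fewer cells of a type and less RNA per cell cannot be told apart.

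**Figure D4:**
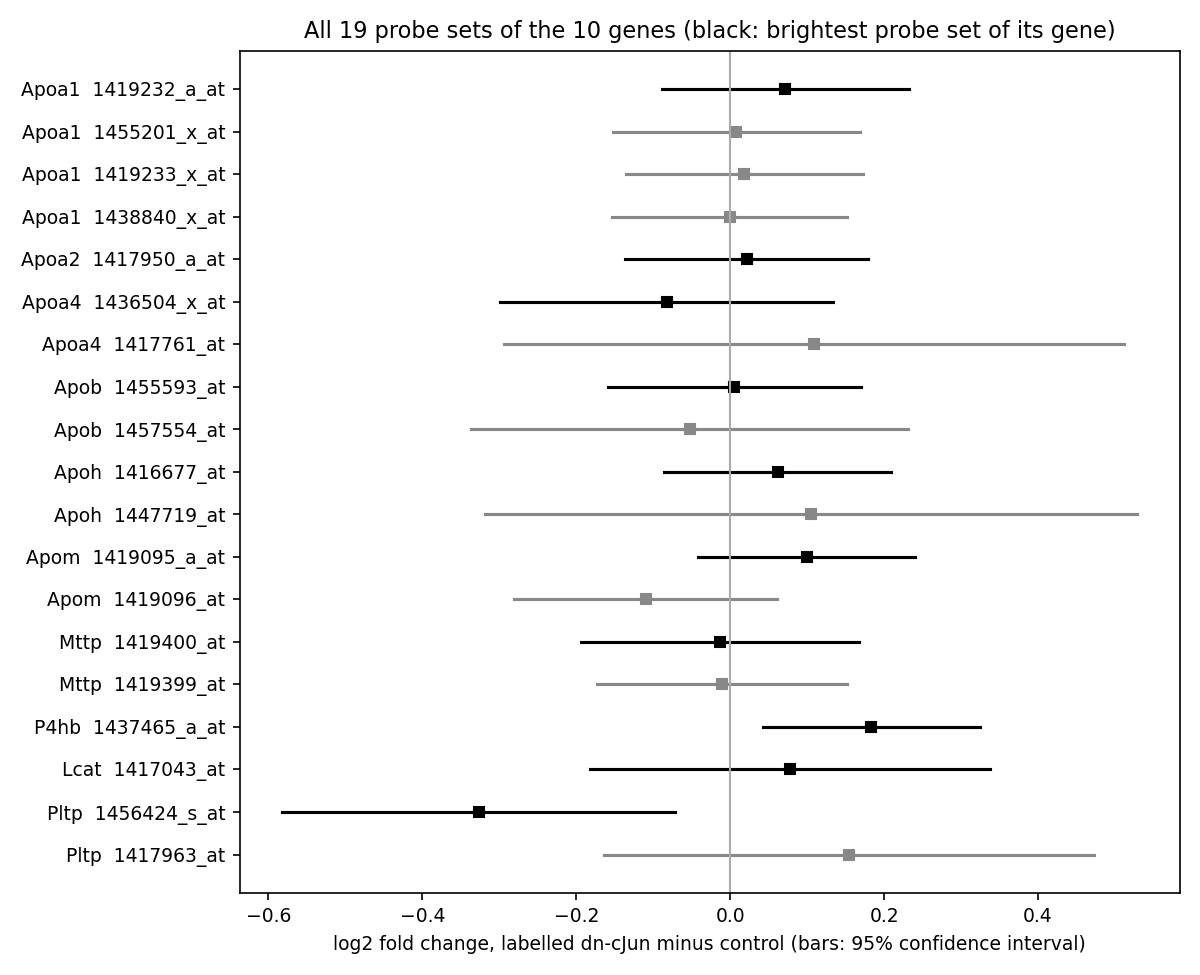
Log2 fold change, labelled dn-cJun minus control, of all 19 probe sets in the fit over all probe sets, with 95% confidence intervals as bars. Black squares are the brightest probe set of each gene and grey squares the others; P4hb at 0.18 and the brighter Pltp probe set at -0.33 are the 2 whose interval leaves out 0, and the second Pltp probe set lies at 0.15.

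The spread between mice differed widely among the 10 genes. The pooled SD within groups was 0.05 for Apoa1, Apoa2 and Apoh, 0.06 for P4hb and 0.07 for Apom, against a median of 0.23 over all genes tested. It was 0.18 for Apoa4, 0.22 for Pltp and 0.23 for Lcat. For Apoa1 and Apoa2 the narrow spread was measured at ranks where quantile normalization leaves little room, as given above. Their intervals after quantile normalization therefore set no limit on a larger fold. With equal trimmed means the interval was 0.19 to 0.65 for Apoa1 and 0.12 to 0.63 for Apoa2. The Apoh interval was -0.04 to 0.16 after quantile normalization and 0.13 to 0.57 with equal trimmed means. For Apob these were -0.12 to 0.13 and 0.04 to 0.47. The narrow intervals of Apoh and Apob thus hold for quantile normalization alone.

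**Figure D5:**
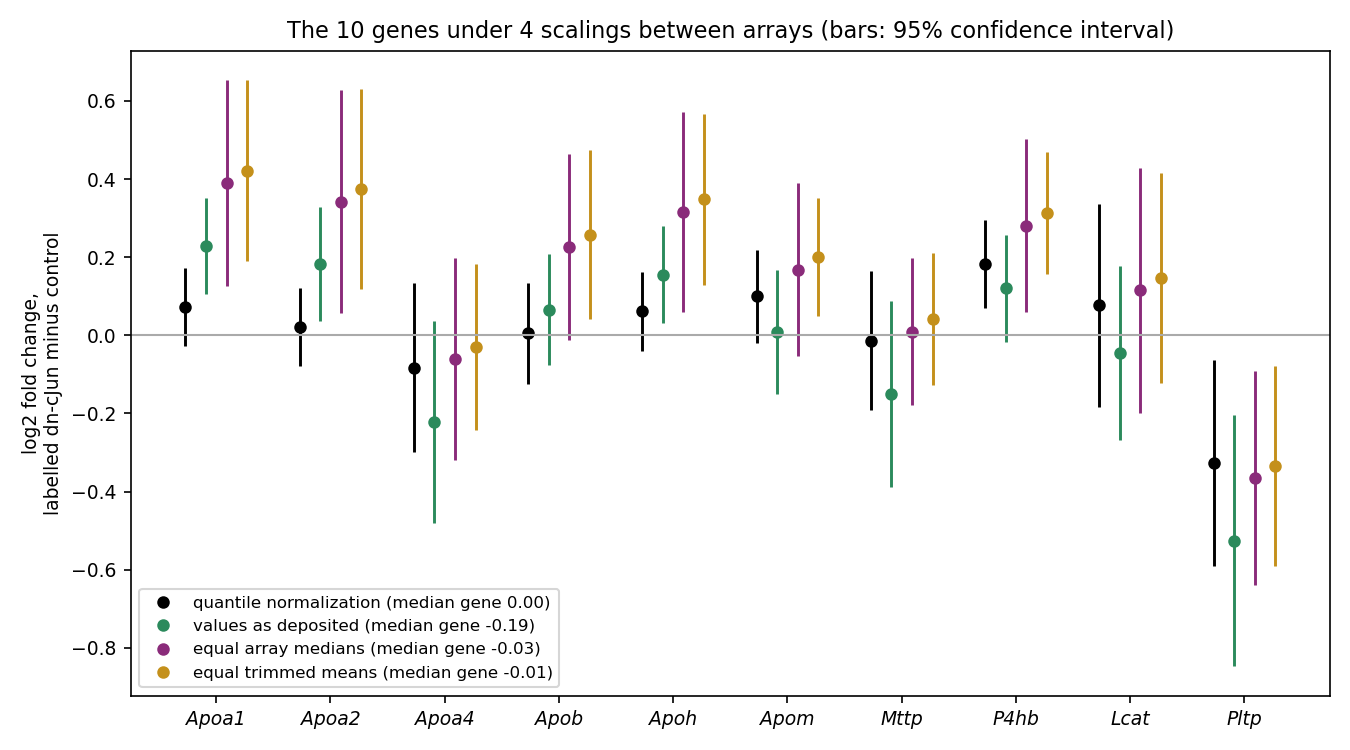
Log2 fold change, labelled dn-cJun minus control, of the 10 genes under 4 scalings between arrays, with 95% confidence intervals as bars and the shift of the median gene in the legend. Pltp lies below 0 under each scaling (-0.33 to -0.53) and P4hb above 0 (0.12 to 0.31), while Apoa1 ranges from 0.07 to 0.42.

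Other genes of lipoprotein metabolism gave no call after quantile normalization. Of the 60 listed pathway genes that could be tested, in 5 lists, 0 passed the threshold in either direction (limma, with 11 at an unadjusted p under 0.05, which is 18.3% beside 14.9% of all genes). With the values as deposited, 3.85% of all genes passed and the median gene was at -0.19. There 2 of the 60 passed, Tm6sf2 and Hspa5, both lower, and 0 did in each other alternative fit at an adjusted p under 0.05. After quantile normalization Sec23a and Hspa5 were under the looser threshold of 0.1, as were 250 of all 12736 genes. Among 8 other apolipoproteins 7 were higher, with a median difference of 0.04, and Apoa5, an activator of triglyceride hydrolysis in plasma, was at 0.32 (SE 0.10, limma adjusted p = 0.151), while Apoc1 was at 0.08 (SE 0.05, limma adjusted p = 0.542) and, under the other scalings, at 0.16 to 0.35. Among 16 partners of VLDL assembly and secretion 9 were higher and 7 lower. This turned to 6 of 16 higher without controls 14 and 15, and the median went from 0.02 to -0.03. Sec23a, a coat protein of vesicles that leave the endoplasmic reticulum, was at 0.26 (SE 0.06, limma adjusted p = 0.0688). Its ranges did not overlap, which 4.22% of all genes showed, but Sec23a was at 0.07 (limma adjusted p = 0.641) with the values as deposited. Tm6sf2, a membrane protein needed for lipid loading of VLDL, was at -0.49 (SE 0.15, limma adjusted p = 0.153). With the values as deposited it was at -0.70 (limma adjusted p = 0.0317), and at -0.54 (limma adjusted p = 0.112) without controls 14 and 15. After quantile normalization without those arrays it was at -0.33 (limma adjusted p = 0.402). Among 8 genes of HDL formation and remodelling 6 were higher, with a median of 0.15. Saa4 was at 0.23 (SE 0.10, limma adjusted p = 0.287) and Gpld1 at 0.31 (SE 0.15, limma adjusted p = 0.367). Saa4 was at 0.14 without dn-cJun 19 and at 0.15 with the values as deposited. Gpld1 was at 0.14 without control 11, at 0.49 without controls 14 and 15 and at 0.12 with the values as deposited.

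Among 15 nuclear factors known to act on apolipoprotein genes 9 were higher and 6 lower, with a median of 0.02. Foxa3 was at 0.34 (SE 0.13, limma adjusted p = 0.229) and Hnf4a, the nuclear receptor that drives many apolipoprotein promoters, at 0.21 (SE 0.08, limma adjusted p = 0.255). With the values as deposited Foxa3 was at 0.13 and Hnf4a at 0.06. Hnf4a was at -0.02 when probe sets with names ending in _x_at or _s_at were left out. Over all genes tested, 6408 were higher and 6328 lower.

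The tissue label was checked on marker genes. All 7 hepatocyte markers with a probe set lay above the filter, with a summed normalized intensity of 300600 to 331600 in the arrays labelled dn-cJun and 276800 to 312600 in controls, and 6 of 7 had a higher mean in the arrays labelled dn-cJun without a call. Of 5 enterocyte markers, which mark the other main source of Apoa4, Apob and Mttp, Lct, Vil1 and Cdx2 lay below the filter. The other 2 lay above it, Fabp2 at a mean log2 signal of 12.28 in the arrays labelled dn-cJun and 12.41 in controls (limma adjusted p = 0.448), and Alpi at 6.63 and 6.61 (limma adjusted p = 0.981). The adipocyte markers Adipoq and Lep lay below it too.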

How the data were processed

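Each deposited value is an intensity, linear and summarised per probe set by the authors, as the range of the values shows. For these values no software and no genome build is given in the sources used here. The mean of an array after trimming 2% at each end was 443.4 to 609.3, and the reason for this range is not stated. Values were taken as log2(intensity + 16). Array medians spanned 0.50 on that scale, above the set limit of 0.1, so arrays were quantile normalized (limma 3.58.1, R 4.3.3). The 64 control probe sets were then left out. Genes were named from the platform annotation, and their Entrez identifiers matched 99.4% to GRCm38.p6. Each gene was taken as its brightest single-symbol probe set, and genes below the 40th percentile of probe sets were left out. All 19 probe sets described passed this filter.

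Groups were compared with limma (eBayes with trend, two-sided, Benjamini-Hochberg over all genes or all probe sets). Replicates are separate mice, and precision is limited by having 5 arrays per group. The fit was tested on simulated data. The genes named are the 10 chosen, label checks, from each pathway list up to 4 called genes or otherwise the 2 of smallest p, and the 5 genes most correlated with the chosen gene of smallest p. Further mentions (the macrophage marker Timd4, enterocyte and adipocyte markers) come from marker lists. The genes and lists were chosen with earlier results of these data known. Alternatives were other scalings, pseudocounts of 1 and 64, other filters, probe set choices, eBayes settings, array weights, arrays left out and thresholds of 0.01 and 0.1. The deposited values and equal trimmed means without controls 14 and 15 were added after seeing the data. Promoter sequences come from RefSeq. Figures were drawn with matplotlib 3.10.9.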

Additional observations from a re-analysis of the deposited data

Results flagged for a closer look

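Groups of 5 arrays were searched for an array whose gap to its nearest neighbour is large for the group's range (Dixon's ratio above 0.71). Chance gives this in about 1 of 20 groups, and 6 of 80 groups showed it. In the arrays labelled dn-cJun, array 20 had 16.08 for the brightest Apoa1 probe set against 16.16 in the other 4 (ratio 1) and 16.16 for the second against 16.01 to 16.03 (ratio 0.866), and array 16 had 15.90 for the fourth against 15.94 to 15.96 (ratio 0.76). These 3 are differences of a few ranks at the top of the range. Array 16 was also highest for Aldh9a1, at 13.84 against 13.59 to 13.65 (ratio 0.749). Among controls, control 14 was lowest for Apom, at 14.01 against 14.11 to 14.14 (ratio 0.776), and control 11 was highest for Mttp, at 13.18 against 12.77 to 12.83 (ratio 0.851).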

How the results depend on the processing

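No paired analysis was possible because the replicate numbers 11 to 20 do not repeat between the groups. Of the 10 genes, 0 passed in every fit with 1 array left out (0 to 0), likewise for the 19 probe sets. Exactly 1 gene passed with the values as deposited (Apoa1, 0.23), with a term for controls 14 and 15 (Pltp, -0.50) and with deposited values without them (Pltp, -0.70). Of the 19 probe sets, 0 passed in each of these settings. In the fits over genes, Apoa2, Apoh and P4hb kept their direction and side of the threshold in all alternatives run. The second Apoh probe set turned from 0.10 to -0.10 with the values as deposited and to -0.16 without controls 14 and 15. The number of all genes past the threshold was unstable: 99 in all, 13 (without dn-cJun 17) to 199 (without control 12) with 1 array left out, 490 as deposited (22 higher, 468 lower), 65 with equal array medians, 44 with the mean of probe sets, 9 without the eBayes trend, 52 without controls 14 and 15 (208 as deposited and 58 with equal trimmed means), 156 with the term for them, 8 at a threshold of 0.01 and 250 at 0.1. The cause of these changes was not tested.

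Some differences changed sign, those of the Y-linked genes (2.37 for Eif2s3y) and of Pltp (-0.33) among them. With the mean of probe sets Apoa4 was at 0.013, Apob at -0.024, Apom at -0.0050, Hnf4a at -0.0030 and Ext2 at -0.12. Without _x_at and _s_at probe sets Apoa4 was at 0.11, Pltp at 0.15 and Hnf4a at -0.024. Without controls 14 and 15, and with the term for them, Apoa4 was at 0.063 and 0.065, Apob at -0.021 and -0.023, Eif2s3y at -0.18 and -0.18, Kdm5d at -0.018 and -0.019 and Uty at -0.29 and -0.29. Without them and with deposited values Apom was at -0.023, Eif2s3y at -0.39, Kdm5d at -0.26, Uty at -0.52 and Selenos at -0.010, and with equal trimmed means Apoa4 was at 0.12, Eif2s3y at -0.19, Kdm5d at -0.071 and Uty at -0.33. Mttp was at 0.0097 with equal array medians, 0.042 with equal trimmed means and 0.018 with array weights. Lcat was at -0.045 as deposited and -0.0025 with array weights, and Selenos at -0.014 as deposited. With 1 array left out Apob ranged from -0.022 to 0.038, Mttp from -0.039 to 0.064, Lcat from -0.042 to 0.15 and Jun from -0.18 to 0.067.

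The contrast of 3 prime and 5 prime probe sets was 0.03 for Gapdh and -0.031 under each other scaling (-0.021 without controls 14 and 15), and 0.04 for Actb and 0.12 under each other scaling (0.12 without them). With 1 array left out it was 0.014 to 0.058 for Actb and 0.0083 to 0.051 for Gapdh. A factor applied to a whole array leaves this contrast almost unchanged, so the other scalings repeat 1 value and are not separate readings.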
